A study of Mus musculus with 6 samples.

Results

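The mitochondrial ribosomal proteins are the nuclear-encoded proteins of the ribosome inside mitochondria. Here they were taken as every gene in the count tables whose symbol starts with Mrpl or Mrps and a number, without pseudogene symbols, which gave 77 of 24422 genes. RNA was sequenced from whole kidneys of wild type C57BL/6 mouse pups at postnatal day 15. The 3 FeD pups came from dams fed an iron-deficient diet of 2 to 6 ppm iron, and the 3 control pups came from dams fed an iron-sufficient diet of 220 ppm iron. By the labels, dams ate their diet from before mating until the pups were taken. The labels give no altered allele and no other agent in either group. The diet was given to the dam, so litter and diet cannot be told apart where pups of a group shared a dam, which the labels do not state, and the P values measure the spread between these kidneys. Libraries held 13732173 to 20853293 counted reads, and each member had between 195 and 4037 reads in every library.

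Mitochondria carry their own small genome, which encodes core subunits of the respiratory chain and the RNAs of the ribosome. All proteins of that ribosome are encoded in the nucleus, made in the cytosol and imported. The small subunit (Mrps symbols) binds and decodes the messenger RNA, and the large subunit (Mrpl symbols) joins amino acids and releases the chain at the inner membrane. Some of these proteins descend from bacterial ribosomal proteins and others occur only in mitochondria. Mrps16, Mrps18a, Mrps18c and Mrps25 take part in binding iron-sulfur clusters in known structures of the mammalian mitoribosome. Such clusters contain iron, and these 4 members are therefore described in most detail. Mrps18a and Mrps30 belong to the large subunit despite their symbols, and Mrps36 is regarded today as a component of the alpha-ketoglutarate dehydrogenase complex.

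The promoter sequences of these 4 genes are shown because they are the members listed here as binding iron-sulfur clusters and because they moved to different degrees. Each line gives the 170 bases before a transcription start from RefSeq (build GRCm38.p6), 5′ to 3′ on the strand of the gene, and capitals mark a searched motif on either strand. Where RefSeq gives more than 1 start, the most upstream one was used. The stretches lie at chr6:92184024-92184193 (minus strand), chr14:20393635-20393804 (minus strand), chr17:46110834-46111003 (plus strand) and chr5:100798589-100798758 (plus strand).
Mrps25: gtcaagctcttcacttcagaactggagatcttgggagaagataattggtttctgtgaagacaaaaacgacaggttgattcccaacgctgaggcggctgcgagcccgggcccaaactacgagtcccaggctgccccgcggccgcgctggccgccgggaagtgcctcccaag
Mrps16: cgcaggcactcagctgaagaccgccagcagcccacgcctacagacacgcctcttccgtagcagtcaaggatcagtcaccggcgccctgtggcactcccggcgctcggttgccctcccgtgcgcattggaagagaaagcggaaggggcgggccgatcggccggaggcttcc
Mrps18a: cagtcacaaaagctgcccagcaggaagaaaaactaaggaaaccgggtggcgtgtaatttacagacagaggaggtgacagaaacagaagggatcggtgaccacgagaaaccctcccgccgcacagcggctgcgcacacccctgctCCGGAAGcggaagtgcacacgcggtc
Mrps18c: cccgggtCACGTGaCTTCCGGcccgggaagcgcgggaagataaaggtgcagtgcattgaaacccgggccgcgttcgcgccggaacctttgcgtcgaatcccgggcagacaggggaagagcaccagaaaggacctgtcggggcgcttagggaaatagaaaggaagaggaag
Mrps18a held the ETS motif CCGGAAG, the core bound by factors such as GABPA, close to its start, and Mrps18c held it on the other strand next to the E-box CACGTG. No searched motif lay in the stretches shown for Mrps25 and for the upstream start of Mrps16. A second start of Mrps16, not shown, had the ETS motif on the other strand at positions -74 and 25 relative to that start.

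A promoter window of 250 bases before to 50 bases after the start was given for 68 of the 77 members and for 27025 genes in all. Motifs were searched on both strands. CCGGAAG lay in 36.8% of the members' windows, in 9.93% of all genes' and in 17.8% of those of the genes tested here. The NRF1 core GCATGCGC lay in 11.8% of the members' windows, 3.05% of all and 5.42% of tested genes. The YY1 motif AAGATGGCG lay in 11.8%, 1.64% and 3.13% in the same order. The E-box CACGTG lay in 7.35%, 8.09% and 11.2%, and the TATA box TATAAA lay in 7.35%, 15.7% and 9.27%. ETS, NRF1 and YY1 letters were thus more frequent in members than in tested genes, and E-box and TATA letters were less frequent. The ETS motif occurred in 17 of 49 members that fell and in 8 of 19 that did not pass the test. The YY1 motif occurred in 7 of those 49 (Mrpl36, Mrpl37, Mrpl42, Mrps11, Mrps18a, Mrps24 and Mrps27) and in 1 of those 19 (Mrpl35). The NRF1 core occurred in 4 of those 49 and in 4 of those 19. The median log2 fold change was -0.63 over the 8 members with the YY1 motif and -0.33 over the members without it. It was -0.16 with and -0.36 without the NRF1 core, and -0.35 with and -0.34 without the ETS motif. A match of letters in a window is a description of sequence and was not tested against expression.

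Transcripts of mitochondrial ribosomal proteins were lower in FeD kidneys across both subunits. All 77 members were among the 15145 genes tested, and 58 of them (75.3%) fell at an adjusted P (Padj) under 0.05 by the quasi-likelihood F-test of edgeR, adjusted after Benjamini and Hochberg, against 23.3% of all tested genes. None rose, against 22.4% of all tested genes. For higher members, edgeR gave 0 at an unadjusted P under 0.05, and DESeq2 gave 0 at an adjusted P under 0.05. The median log2 fold change of FeD over control was -0.36, a change of -21.8%, and the median of all tested genes was -0.0018. The values ran from -0.90 to 0.15, with 74 of 77 below 0. The SD over members was 0.23 and the median standard error of a member was 0.087.

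**Figure D1:**
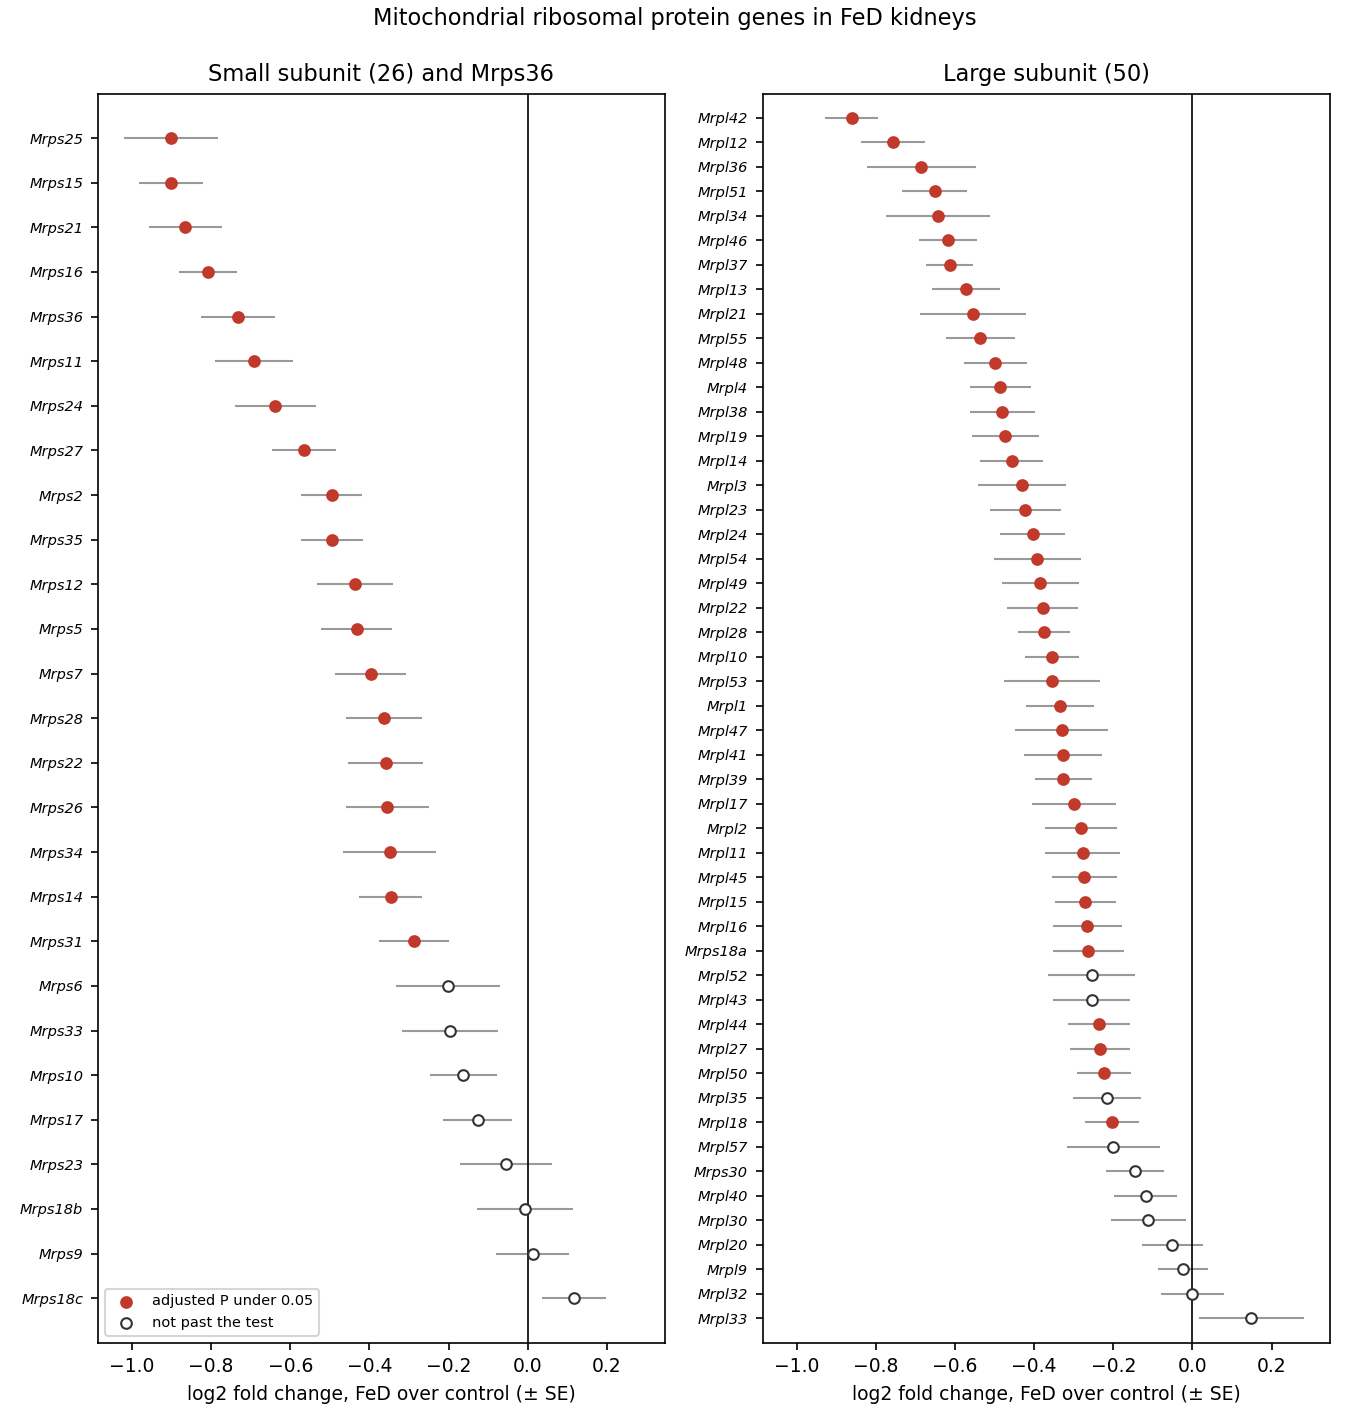
Log2 fold change of FeD over control (horizontal axis, ± standard error of the fit, 3 kidneys per group) for each of the 77 members (vertical axis), with filled points at an adjusted P under 0.05 and open points for members that did not pass. Filled points number 58, all left of 0, and 3 open points lie right of 0.

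The changes were moderate in size. No member fell or rose at least 2-fold with Padj under 0.05, where 5.69% of all tested genes fell and 4.34% rose by that rule, and edgeR gave 0 members past 2-fold at an unadjusted P under 0.05. DESeq2 gave 0 members past 2-fold at an adjusted P under 0.05. Control and FeD kidneys did not overlap in 61 members that were lower (79.2%), against 29.7% of tested genes, and in 1 that was higher, against 28.4%. Each of the 58 called members was among the 61, and the other 3 were Mrpl43, Mrpl35 and Mrps30. Measured by kidney, the median member lay at log2 values of -0.07, 0.02 and 0.04 relative to the control mean in control kidneys and at -0.31, -0.40 and -0.39 in FeD kidneys. In the 3 FeD kidneys, 64, 69 and 72 of the 77 members lay below every control kidney.

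The number of calls was lower whichever kidney was left out, in fits that each had 1 kidney fewer. It was 44, 38 and 36 without control replicates 1, 2 and 3, and 47, 45 and 53 without FeD replicates 1, 2 and 3. In all 6 fits that left out 1 kidney 35 members were called, while the median stayed between -0.39 and -0.33 over those fits. An offset for exon length, fitted within each library, lowered the count to 39, raised 1 member (Mrps18c) past the test and moved the median to -0.26. The members are short genes, with a median exon length of 1708 bases against 3637 bases for tested genes. Tested genes up to 1708 bases had a median log2 fold change of -0.15 and fell in 31.7% of cases, whereas longer ones had a median of 0.02 and fell in 22.4%. Among the members, 29 of 39 fell in the shorter part and 29 of 38 in the longer part. The part of length in the result was not tested beyond these values.

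Both subunits were lower, and the difference between them was not tested. Of 26 small subunit members 18 fell and the median log2 fold change was -0.36, and of 50 large subunit members 39 fell, with a median of -0.33. Of 46 members of bacterial type 35 fell, with a median of -0.37, and of 30 mitochondria-specific members 22 fell, with a median of -0.34. The summed normalized counts of all members (reads scaled to a common library size) were 62261, 65765 and 67344 in control kidneys and 51921, 48620 and 49305 in FeD kidneys, which did not overlap. The FeD sum was 0.77 of control, and 0.78 when expressed per length as TPM, in which reads are divided by exon length and scaled to a common total.

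The largest decreases in the small subunit were those of Mrps25, Mrps15, Mrps21 and Mrps16. Mrps15, a protein of bacterial type, had 696, 706 and 742 normalized counts in control and 374, 366 and 407 in FeD kidneys. All FeD kidneys lay far below the controls, and the log2 fold change was -0.90 ± 0.080 (SE, Padj = 0.00012). Mrps21, also of bacterial type, had 979, 1087 and 1042 in control and 621, 513 and 570.0 in FeD kidneys. Its log2 fold change was -0.86 ± 0.092 (Padj = 0.00025), and 44.7% of its exon windows of 100 bases also matched elsewhere in the genome with at most 2 mismatches. Mrps36, the alpha-ketoglutarate dehydrogenase component, had 687, 755 and 753 in control and 449, 396 and 473 in FeD kidneys, a log2 fold change of -0.73 ± 0.093 (Padj = 0.00054). Copies covered 79.8% of the windows of Mrps36. Only uniquely mapped reads were kept, so its count may be too low.

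In the large subunit, Mrpl42 and Mrpl12 led. Mrpl42, a mitochondria-specific protein, had 1593, 1778 and 1806 normalized counts in control and 959, 939 and 951 in FeD kidneys. The FeD values were tightly grouped, and the log2 fold change was -0.86 ± 0.067 (Padj = 6.4e-05), with 29.8% of windows matching elsewhere. Mrpl12, which corresponds to the bacterial L7/L12 stalk protein that recruits translation factors, had 3179, 3332 and 3593 in control and 2199, 1875 and 1907 in FeD kidneys. Its log2 fold change was -0.76 ± 0.080 (Padj = 0.00025). The 6 members named to this point with the largest decreases (Mrps25, Mrps15, Mrps21, Mrpl42, Mrps16 and Mrpl12) were each called in all 6 fits that left out 1 kidney. Chosen after their values were seen, Mrps11 and Mrpl46 are neighbours that share 7.97% and 12.4% of their exon bases on opposite strands. Mrps11 changed by -0.69 and Mrpl46 by -0.62 in log2, and the ratio of Mrps11 to Mrpl46 was 0.82 ± 0.091 in control and 0.77 ± 0.050 in FeD kidneys (SD, n = 3, two-sided exact permutation p = 0.7, smallest possible 0.1). Of all called members, 18 had a log2 fold change of -0.5 or lower.

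**Figure D2:**
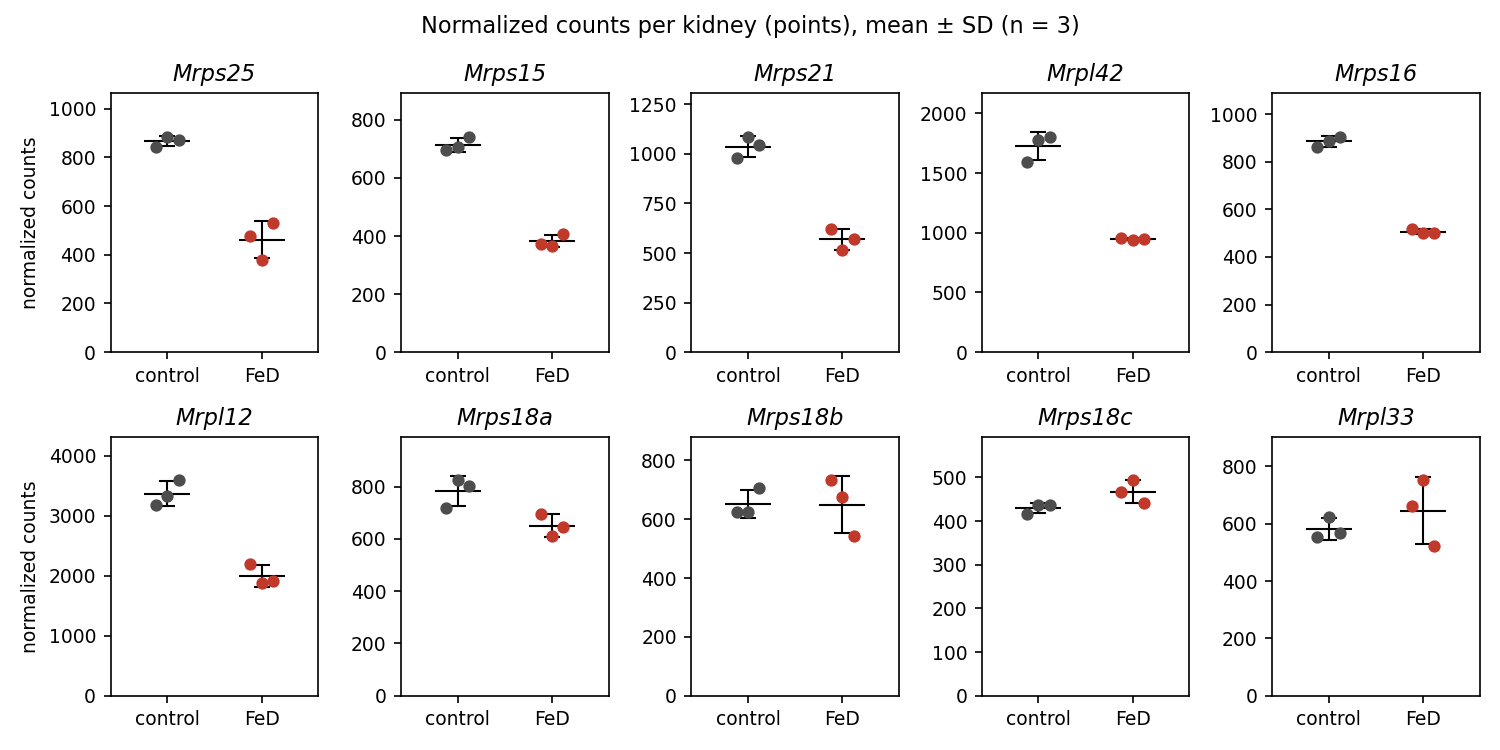
Normalized counts (vertical axis, from 0) in each control and FeD kidney (points) for 10 members, with the mean and SD of 3 kidneys. In Mrps25, Mrps15, Mrps21, Mrpl42, Mrps16 and Mrpl12 all FeD points lie well below all control points, whereas Mrps18c lies slightly higher in FeD and Mrps18b and Mrpl33 overlap.

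The 4 members listed here as iron-sulfur binding did not move together. Mrps25 had 843, 885 and 872 normalized counts in control and 479, 379 and 529 in FeD kidneys, a log2 fold change of -0.90 ± 0.12 (SE, Padj = 0.00068). Mrps16 had 861, 889 and 905 in control and 517, 499 and 500.0 in FeD kidneys, a log2 fold change of -0.81 ± 0.073 (Padj = 0.00012). These 2 are the proteins between which one of the clusters is held. Mrps18a, of the large subunit, had 716, 825 and 804 in control and 696, 609 and 647 in FeD kidneys. Its decrease was small, at -0.26 ± 0.090 (Padj = 0.042), and the call was lost in 4 of the 6 fits without a kidney. Mrps18c, of the small subunit, had 416, 437 and 437 in control and 467, 494 and 440.5 in FeD kidneys. Each FeD kidney of Mrps18c lay above each control kidney, yet the difference of 0.12 ± 0.081 did not pass the test (Padj = 0.27), except with the exon length offset, where it was 0.29 (Padj = 0.014).

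Ratios within a kidney do not depend on the scaling of libraries. Mrps16 over Mrps18c was 2.06 ± 0.022 in control and 1.08 ± 0.065 in FeD kidneys (SD, n = 3). Mrps25 over Mrps18c was 2.02 ± 0.017 in control and 0.999 ± 0.22 in FeD kidneys. Mrps18a over Mrps18c was 1.82 ± 0.085 in control and 1.40 ± 0.14 in FeD kidneys. In these 3 ratios the groups did not overlap, and each gave a two-sided exact permutation p = 0.1, the smallest that 3 against 3 kidneys allow. Each upper member was below and Mrps18c above every control kidney in all FeD kidneys. The separation of the ratios was thus fixed by the values above and adds no further support. Mrps18b, the third member of the Mrps18 family, had 626, 624 and 707 normalized counts in control and 733, 674 and 543 in FeD kidneys, so the groups overlapped, and the log2 fold change was -0.0071 ± 0.12 (Padj = 0.97). Its ratio to Mrps18c was 1.52 ± 0.095 and 1.39 ± 0.17, which overlapped (exact permutation p = 0.3). Windows that matched elsewhere made up 20.9% in Mrps25, 29.8% in Mrps16, 23.7% in Mrps18c and 54.6% in Mrps18b. In addition, 53.7% of the exon bases of Mrps25 overlap Nr2c2 on the opposite strand.

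Of the 77 members, 19 did not pass the test. Mrpl33, a small protein of bacterial type, had 552, 624 and 566 normalized counts in control and 662, 752 and 522 in FeD kidneys, and the groups overlapped (0.15 ± 0.13, Padj = 0.39). Mrps30 had 622, 613 and 609 in control and 564, 572 and 534 in FeD kidneys, without overlap (-0.14 ± 0.073, Padj = 0.14). The smallest decreases that passed were those of Mrpl18 (-0.20), Mrpl50 (-0.22), Mrpl27 (-0.23), Mrpl44 (-0.24), Mrps18a (-0.26) and Mrpl16 (-0.27), with standard errors between 0.068 and 0.090. Each of these 6 lost its call in at least 4 of the 6 fits without a kidney. The members nearest the threshold were Mrpl17 (Padj = 0.049), Mrpl47 (0.047), Mrpl53 (0.043) and Mrps18a (0.042) below it and Mrpl43 (0.063), Mrpl35 (0.073), Mrpl52 (0.091) and Mrps30 (0.14) above it. The log2 fold changes ran from -0.35 to -0.26 in the 4 below the threshold and from -0.25 to -0.14 in the 4 above it. Mrpl27 had copies in 80.3% of its windows, and 87.1% of the exon bases of Mrpl53 overlap Ccdc142 on the same strand.

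Levels per length spanned a wide range, and they depend on the union exon length taken for each gene, from 412 to 8079 bases. In control kidneys the median member stood at 72.1 TPM. The highest were Mrpl42 at 427 ± 19.4 TPM (SD, n = 3), Mrpl12 at 363 ± 16.0 TPM and Mrps6 at 265 ± 14.2 TPM. In FeD kidneys the levels were 242 ± 3.04 TPM for Mrpl42 and 221 ± 17.6 TPM for Mrpl12, and for Mrps6 237 ± 47.7 TPM. Mrps6 did not pass the test (log2 fold change -0.20, Padj = 0.24) and shares 43.8% of its exon bases with Slc5a3 on the same strand. The lowest in control kidneys were Mrps10 at 9.78 ± 0.49 TPM, Mrpl33 at 12.8 ± 0.73 TPM and Mrpl47 at 14.8 ± 0.43 TPM. Their union exon lengths were 8079, 7473 and 3420 bases, and their mean normalized counts in control were 479, 581 and 306. Copies covered 53.8% of the windows of Mrps10. Low levels per length of these members thus need not mean few transcripts. Across the 77 members, Spearman's rho of the log2 fold change was -0.06 with control TPM, 0.02 with exon length and -0.05 with the share of copied windows, so none of these properties ordered the members. These values describe members of the same 6 libraries, which are not independent.

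Reads of several members could also match other loci. Of the 77 members, 45 had no copy in any window. Among the 16 with copies in over 20% of windows 12 fell. Among the 30 without copies and without any exon base overlapping another gene 22 fell, with a median of -0.33. The share that fell was thus 75% in the first and 73.3% in the second. Of 21 members with more than 2% of exon bases overlapping a gene on the opposite strand 19 fell. The strand setting of the counting is not given in the sources used here.

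Other lists of the mitochondrial translation apparatus differed in how many of their genes fell, to be read against 23.3% lower and 22.4% higher over all tested genes. Of 6 mitoribosomal proteins under other symbols 3 fell, led by Ict1, the large-subunit protein that releases stalled chains, at -0.67 ± 0.076 (Padj = 0.00033) and Aurkaip1 at -0.54 ± 0.068 (Padj = 0.0005). Of 15 translation factors 8 fell and 0 rose by edgeR, with 1 of 15 higher at an unadjusted P under 0.05. The leading one was Tufm, the elongation factor that delivers aminoacyl-tRNA, with 2759, 2919 and 2953 normalized counts in control and 1441, 1346 and 1549 in FeD kidneys, a log2 fold change of -0.99 ± 0.068 (Padj = 4.1e-05). Mrrf, the ribosome recycling factor, changed by -0.68 ± 0.10 (Padj = 0.0011). Of 17 mitochondrial aminoacyl-tRNA synthetases 9 fell, led by Sars2 at -0.60 and Fars2 at -0.56. The summed level of the list was 1.15 of control and overlapped between groups. Most of that sum was Lars2, with means of 21539 of 31073 normalized counts in control and 27750.5 of 35871 in FeD kidneys. The sum thus mainly followed 1 gene and does not describe the list as a whole. Of 26 genes for mitoribosome assembly and rRNA modification 6 fell (23.1%), a share near the background, and 0 rose. The decreases were led by Mtg2, a GTPase of large subunit assembly, at -0.75 and Rnmtl1, an rRNA methyltransferase, at -0.68. Of these 26 genes 22 had a log2 fold change below 0, with a median of -0.18. In 13 of them the groups did not overlap and FeD was lower, against 29.7% of tested genes, and in 1 FeD was higher, against 28.4%. Of 10 genes for transcription and upkeep of mitochondrial DNA 3 fell (30%) and 1 rose (10%), with a median of -0.05. The named ones were Mgme1, an exonuclease, at -0.56, and Polg2, the accessory polymerase subunit, at 0.46. No gene symbol here started with mt-, the prefix searched for genes of the mitochondrial genome. Transcripts of that genome were therefore not analysed.

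Of 10 regulators of mitochondrial gene programmes 3 fell (30%) and 3 rose (30%), near the shares over all tested genes, with a median of 0.0042. Esrra, a nuclear receptor that drives respiratory genes, had 2313, 2195 and 2684 normalized counts in control and 1265, 1005 and 1011 in FeD kidneys, a log2 fold change of -1.13 ± 0.11 (Padj = 0.00017). Ppargc1b, its coactivator, changed by -0.82 ± 0.16 (Padj = 0.0045). Chosen after their values were seen, Ppargc1a changed by 0.30 (Padj = 0.0049), Myc by 0.70 (Padj = 0.0048) and Yy1 by 0.34 (Padj = 0.0051). Also chosen in this way, Gabpb1, the partner subunit of Gabpa, changed by -0.43 (Padj = 0.01), while Gabpa (0.13, Padj = 0.22) and Nrf1 (0.03, Padj = 0.74) did not pass. Of 12 genes taken as a measure of mitochondrial mass 8 fell and 1 rose, led by Phb, a prohibitin of the inner membrane, at -0.77 ± 0.080 and Tomm40, the import channel, at -0.74 ± 0.13. The summed level of that list in FeD kidneys was 0.83 of control, beside 0.77 for the ribosomal members. Whether mitochondrial ribosomal proteins fell beyond other mitochondrial genes was not tested.

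**Figure D3:**
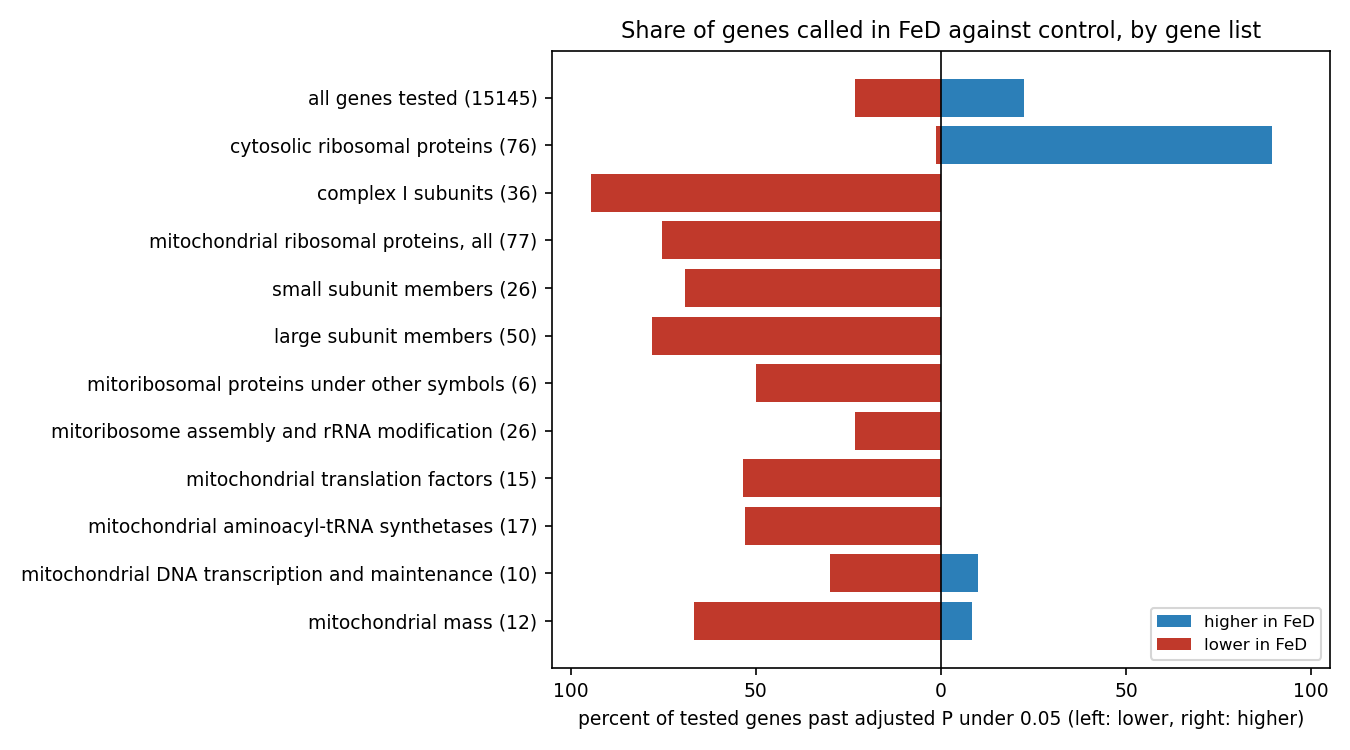
Percent of tested genes with an adjusted P under 0.05 (horizontal axis, lower in FeD to the left and higher to the right) for all tested genes and each gene list (vertical axis, number tested in parentheses). The mitochondrial ribosomal proteins reach 75.3% to the left with none to the right, and the cytosolic ribosomal proteins reach 89.5% to the right.

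Cytosolic ribosomal proteins, which form the ribosome outside mitochondria, showed the opposite direction in the same libraries. Of 76 tested, 68 rose and 1 fell, with a median log2 fold change of 0.50. Rpl12, of the large cytosolic subunit, changed by 0.85 ± 0.11 (Padj = 0.00063), and Rps27 by 2.04 ± 0.29 (Padj = 0.00098) at few reads, with 8.45 and 35.3 normalized counts in control and FeD. Many of these genes have near-identical copies in the genome, so their counts from uniquely mapped reads are uncertain. Complex I of the respiratory chain, part of which is made on mitochondrial ribosomes, had a lower median than the mitoribosomal members. Of 36 nuclear-encoded subunits tested 34 fell, with a median of -0.54, led by Ndufb2 at -1.11 ± 0.10 (Padj = 0.00013) and Ndufs8 at -0.99 ± 0.071 (Padj = 5e-05). The FeD sum was 0.69 of control for complex I and 1.44 of control for cytosolic ribosomal proteins. The 3 sets come from the same comparison, so their values are side by side and were not tested against each other.

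**Figure D4:**
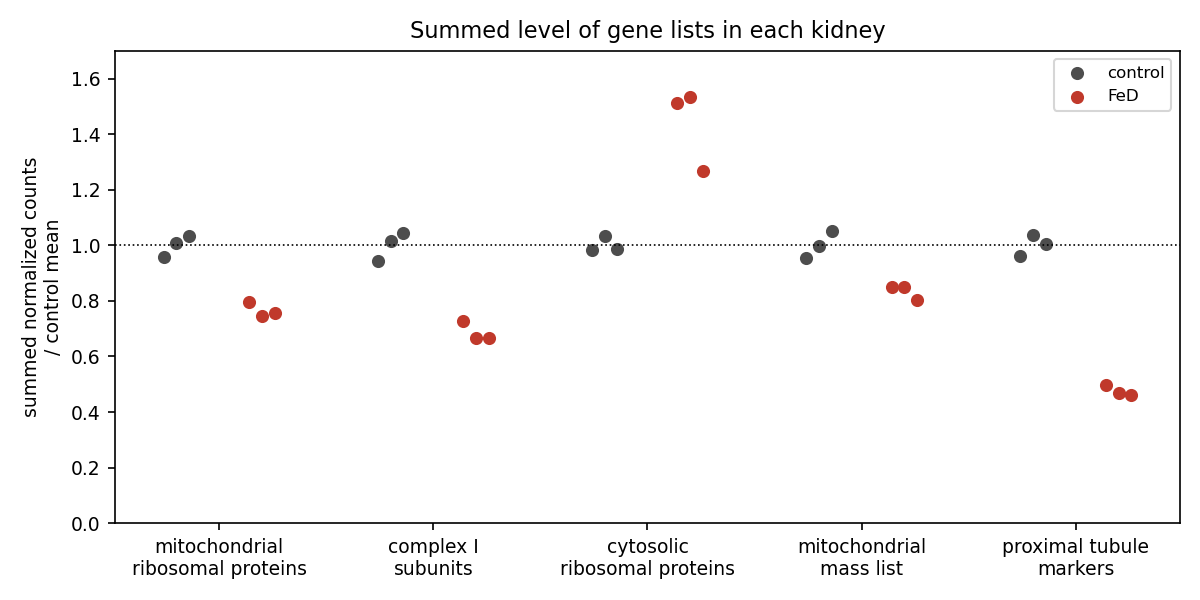
Summed normalized counts of 5 gene lists in each kidney (vertical axis, divided by the mean of the 3 control kidneys; dotted line at 1). FeD kidneys lie below control kidneys for the mitochondrial ribosomal proteins, complex I, the mitochondrial mass list and proximal tubule markers, and above them for cytosolic ribosomal proteins.

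Markers of several cell types also moved between the groups. Their counts are to be read against 23.3% lower and 22.4% higher over all tested genes, and the lists are short. Of 10 proximal tubule markers 8 fell. The summed level of these markers ranged from 165842 to 178667 normalized counts in control and from 79817 to 85561 in FeD kidneys, 0.48 of control. The sodium-glucose transporter Slc5a2 changed by -4.89 and the phosphate transporter Slc34a1 by -2.22. Over the 10 markers the median was -0.56 and the highest value 0.18, and 4 fell at least 2-fold with Padj under 0.05. Markers of the distal convoluted tubule fell in 3 of 4 cases, and their sum ranged from 31814 to 43407 in control and from 13823 to 17202 in FeD kidneys. Markers of the thick ascending limb fell in 1 of 5 cases, with sums of 113406 to 120295 and 85264 to 140908 that overlapped. Of 7 collecting duct markers 3 rose, among them the water channel Aqp2 at 1.13, and 3 fell, led by Slc26a4 at -1.67 and Slc4a1 at -1.42. Their sum was 1.74 of control, narrowly without overlap (highest control kidney 30220, lowest FeD kidney 30415). The median log2 fold change of the 7 was 0.07, so the sum does not describe the list as a whole. Of 5 stromal markers 2 fell and 2 rose, and the sum of normalized counts was 0.72 of control without overlap. Expressed as TPM, the stromal sum was 0.95 of control and the groups overlapped. Of 5 podocyte markers 1 rose, and the sum was 0.98 of control with overlap. All 5 proliferation markers fell, to a sum of 0.28 of control, and 4 of 5 endothelial markers fell. Of 6 myeloid markers 3 rose and 1 fell. The erythroid globin genes Hba-a1, Hba-a2, Hbb-b1 and Hbb-b2 were listed at 0 in every library. Ndufs5 and Rpl26, genes that every cell uses, were listed at 0 as well, so these zeros set no bound on expression. Alas2, the erythroid enzyme of heme synthesis, did not pass the test (-1.17, Padj = 0.081). In whole kidney, fewer cells of a type and less RNA per cell cannot be told apart. The part of cell composition in the decrease of the members was not tested. Xist exceeded the Y-linked Ddx3y in 2 control and 1 FeD library, so both sexes occurred in both groups, and with a term for this split, chosen after seeing the data, 54 members fell with a median of -0.38.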

How the data were processed

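The authors made TruSeq libraries from polyadenylated kidney RNA and read 100 bases from 1 end of each fragment. Per the submitters' notes and the methods, reads were processed with CASAVA 1.8.2, Trimmomatic and TopHat2 2.0.11 on mm9, uniquely mapped reads were kept, and HTSeq was used. The deposited values are raw counts per gene and kidney without normalization or pooling; unique mapping undercounts genes with copies. Annotation and strand setting are not given in the sources used here.

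Counts of 6 kidneys were compared in R 4.3.3 with edgeR 4.0.16 (filterByExpr, TMM, glmQLFit and glmQLFTest, Benjamini-Hochberg over 15145 genes). The script was tested on simulated data. Normalized counts are counts divided by TMM-scaled library sizes and multiplied by the mean library size. The standard error is the log2 fold change divided by the root of the F statistic. TPM used union exon lengths of GENCODE vM1 on NCBIM37 (mm9), which also gave exon overlaps, and copies were sought with minimap2 2.31-r1302. A floor of 3 counts per library covers counting error only. Members and lists were chosen with earlier results of these data known. Members named by rule were the 6 largest and 6 smallest called changes, iron-sulfur and Mrps18 members, those with misleading symbols, the 3 highest and 3 lowest levels per length and the 4 nearest the threshold on either side; from each other list, the 2 largest called changes. Alternatives were other scaling and filters, DESeq2 1.42.0, a replicate block, an exon length offset, a sex term and leaving out each kidney.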

Additional observations from a re-analysis of the deposited data

How the results depend on the processing

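The count of 58 members that fell became 57 with DESeq2 size factors, 57 with library size alone and 55 without a filter on low counts. It was 57 with at least 10 counts in every sample, 48 with DESeq2 and 39 with the exon length offset. A run with globin genes left out kept the same 15145 tested genes, so it could not change the count. The count ranged from 36 to 53 when 1 kidney was left out. Members that rose numbered 1 with the exon length offset, 1 with the replicate block and exon length offset together, and 0 to 1 when 1 kidney was left out (Mrpl33 at 0.29 without FeD replicate 3), and 0 under the other alternatives. With the exon length offset the median log2 fold change was -0.26 over the members, -0.28 over the small subunit and -0.24 over the large subunit. Fewer genes (13730) entered that fit. Mrps18b, near 0 in the comparison, changed sign to 0.0013 with DESeq2 size factors, 0.0035 with at least 10 counts, 0.00037 with DESeq2, 0.098 with the exon length offset, 0.093 with the block and offset, and ran from -0.087 to 0.12 over the fits that left out 1 kidney, above 0 without control replicate 3 (0.053) and without FeD replicate 3. The cause was not tested. No member that had fallen changed sign under any alternative run, and the median of all tested genes stayed between -0.01 and 0.015.

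Replicate numbers 1 to 3 occur in both groups but name different animals. Deviations from the group means correlated at -0.16, 0.0001 and -0.03 over tested genes between kidneys of the same number, so the numbers did not pair the kidneys. With a replicate block 49 members fell and 0 rose, and with the replicate block and exon length offset 37 fell, with medians of -0.26 over the members, -0.28 over the small and -0.24 over the large subunit.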

Other observations

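The synthetase Lars2 stood apart from its list. It had 21055, 21043 and 22519 normalized counts in control kidneys and 21557, 37573 and 24121 in FeD kidneys, so that FeD replicate 2 alone lay far above the others, and its log2 fold change was 0.37 ± 0.19 (SE, Padj = 0.15 by edgeR's quasi-likelihood test). It was chosen after its values were seen. The import receptor Tomm20, also chosen after its values were seen, was the 1 gene of the mitochondrial mass list that rose, with 3364, 3658 and 3795 in control and 5757, 6003 and 4882 in FeD kidneys, a log2 fold change of 0.62 ± 0.092 (Padj = 0.0011). Tomm70a of the same list was higher in each FeD kidney than in each control kidney but did not pass the test (0.11 ± 0.055, Padj = 0.14).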
